A study of Mus musculus with 8 samples.

Results

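The Kruppel-like factor (KLF) genes examined here are Klf2, Klf3, Klf4, Klf5, Klf6, Klf9, Klf10, Klf11, Klf13 and Klf15, 10 of the 21887 protein-coding genes of the mouse annotation. They were chosen by name, and the regions described are all accessible regions (peaks) over each gene body and 25 kb on both sides. These windows held 48 of 100099 peaks of cells with an empty vector and 78 of 128538 peaks of cells with a Klf4 plasmid. The cells were MIN6, a mouse insulinoma line with a wild-type genotype per the labels, which stands in for the insulin-producing beta cell. It derives from tumours driven by a viral oncogene under the insulin promoter, so it is a proliferating line and not a primary islet cell. Both groups were transfected with the same lipid reagent for 48 hours, the control with pcDNA 3 without an insert and the other with pGloMyc-Klf4, so the labelled plasmid names differ in more than the insert. Open chromatin was measured by ATAC-seq, in which a transposase inserts adapters where DNA is free of nucleosomes. The labels list 4 libraries per group, but the values are 1 merged peak list per group. There was therefore no spread between libraries, no test between the groups, and no read depth in the files. A merged list also cannot separate a site open in a few cells from one weakly open in many, nor transfected from untransfected cells.

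KLF proteins bind DNA with C2H2 zinc fingers at the carboxyl end, which recognise CACCC elements and GC-rich boxes, and members can occupy the same sites. Their amino-terminal parts differ and recruit either coactivators or corepressors, so that members activate or repress genes that they share. KLF genes are also often targets of KLF proteins, and Klf4 is best known as a reprogramming factor and as a regulator of epithelial differentiation.

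The cell label was set against marker genes over the same windows. Of the 6 beta cell genes, all had peaks in both lists, and the 4 whose start position was available (Ins1, Pdx1, Nkx6-1 and G6pc2) had a peak within 1 kb of it in both lists. Neither list had a peak within 1 kb of the start of Ptprc, Cd3e or Lyz2, markers of leukocytes. Peaks over their 3 windows summed to 3297 bp in the first list and 3272 bp with Klf4, with Cd3e at 307 and 1199 bp. In the same order the sums were 31064 and 39763 bp for the beta cell genes, 6667 and 4592 bp for the 2 alpha cell genes, 3808 and 5058 bp for the 2 delta cell genes, 5347 and 10906 bp for the 3 acinar genes and 11547 and 13612 bp for the 3 fibroblast genes. The starts of the alpha cell genes Gcg and Irx2 were open with both plasmids. Starts of other lineages with a peak in the Klf4 list alone were Hhex (delta cell), Ptf1a (acinar) and Col1a2 (fibroblast), and the acinar gene Cela1 had one in both. The part of other cells in the results below was not tested.

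The promoters of 4 members are shown because the peaks at their starts differ in kind. With Klf4 the start of Klf4 had no peak and that of Klf9 had a wider one than with the empty vector, the start of Klf15 lay between peaks, and that of Klf3 had a similar peak in both lists and the most CACCC elements. Each is the stretch of 250 bases before the transcription start, written 5′ to 3′ on the strand of the gene, from RefSeq sequence of GRCm38.p6. Capitals mark CACCC or GGGCGTG on either strand. The positions are chr4:55532476-55532725 on the minus strand for Klf4, chr6:90462326-90462575 for Klf15, chr19:23140976-23141225 for Klf9 and chr5:64803271-64803520 for Klf3, the last 3 on the plus strand.
Klf4: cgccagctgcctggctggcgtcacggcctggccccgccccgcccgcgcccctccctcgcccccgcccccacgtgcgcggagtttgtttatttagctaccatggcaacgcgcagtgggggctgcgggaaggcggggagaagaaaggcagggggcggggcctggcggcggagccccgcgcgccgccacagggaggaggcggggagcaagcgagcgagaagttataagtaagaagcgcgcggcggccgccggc
Klf15: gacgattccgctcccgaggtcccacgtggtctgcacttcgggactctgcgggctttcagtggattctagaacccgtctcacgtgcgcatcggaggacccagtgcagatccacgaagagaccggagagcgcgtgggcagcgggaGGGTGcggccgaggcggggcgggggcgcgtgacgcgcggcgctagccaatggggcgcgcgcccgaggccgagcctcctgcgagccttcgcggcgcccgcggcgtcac
Klf9: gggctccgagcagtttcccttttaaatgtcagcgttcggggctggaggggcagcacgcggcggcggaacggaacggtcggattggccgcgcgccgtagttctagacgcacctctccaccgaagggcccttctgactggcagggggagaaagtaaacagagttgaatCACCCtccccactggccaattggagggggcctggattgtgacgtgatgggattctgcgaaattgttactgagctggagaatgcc
Klf3: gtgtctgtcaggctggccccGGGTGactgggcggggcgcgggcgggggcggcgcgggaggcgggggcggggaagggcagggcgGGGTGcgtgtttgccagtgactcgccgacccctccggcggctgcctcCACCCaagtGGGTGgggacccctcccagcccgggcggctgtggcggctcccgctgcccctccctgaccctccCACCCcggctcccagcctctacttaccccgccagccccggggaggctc

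Promoter windows of 300 bases (250 before and 50 after the start) were matched for 8 of the 10 members. The letters CACCC were in 5 of these windows, those of Klf2, Klf3, Klf9, Klf13 and Klf15, beside 59.5% of the 21263 windows of all coding genes. The longer form CCACCC, which contains CACCC, was in 3 (Klf2, Klf3 and Klf13), beside 33.6%. CCCCACCC, which contains both, was in that of Klf3 alone, beside 11.0%. GGGCGTG, which does not overlap the others, was in those of Klf11 and Klf13, beside 10.9%. The windows of Klf4 and Klf6 held none of the 4 forms. Both strands were searched, and a match describes letters and not a bound site. All 8 windows were rich in G and C, at 63.0 to 77.7% (median 72.7%), where the median was 56.3% for all coding genes and 62.0% for windows under an empty vector peak.

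Most KLF genes had a peak near the start with either plasmid, and Klf4 itself had none there in the Klf4 list. An empty vector peak lay within 1 kb of the start of each of the 8 members with a known start, and a Klf4 peak did so for all of them except Klf4. Over all 17492 coding genes with a known start these shares were 64.3% and 70.8%. Klf5 and Klf10, whose starts were not matched, had a peak covering an end of the gene body in both lists. Of all coding genes 65.0% had an empty vector peak and 71.9% a Klf4 peak within 1 kb of either end. A narrower count asked for a peak inside the 300-base window itself. The empty vector list covered 7 of the 8 windows and the Klf4 list 6, against 60.8% and 67.0% of all coding genes. The Klf4 gene had an empty vector peak and no Klf4 peak in its window, as did 0.583% of all coding genes. This missing peak does not show a closed start, since signal in the adjoining gene body may come from the plasmid. The background estimated there is given below. Klf15 had a peak in neither.

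**Figure D1:**
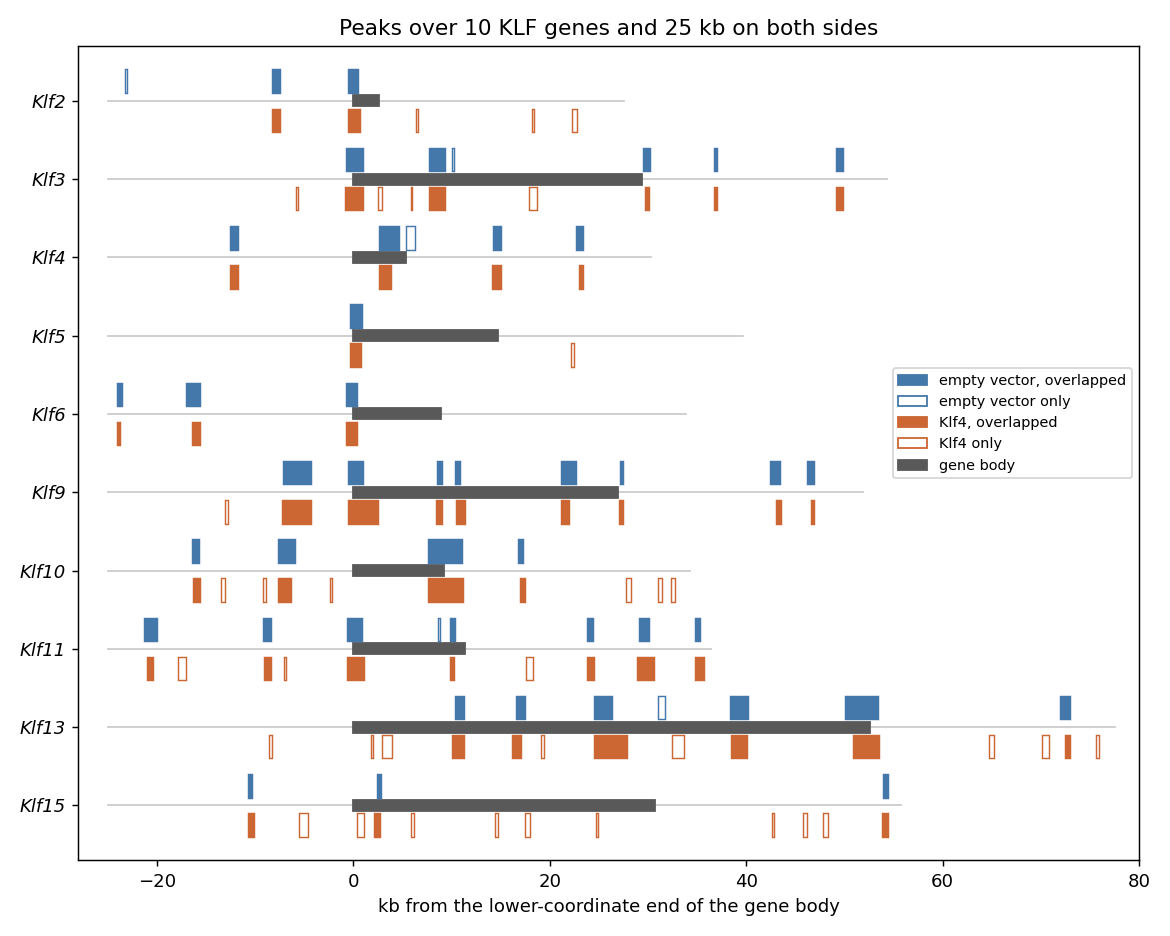
Peaks over the 10 KLF genes and 25 kb on both sides, with each row aligned at the lower-coordinate end of the gene body (x axis in kb) and drawn to scale. Blue boxes above the line are empty vector peaks and orange boxes below it are Klf4 peaks. Open boxes have no overlapping peak in the other list, and 9 of them lie at Klf15.

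The windows of KLF genes held more peaks and more covered length with Klf4, while peaks matched between the lists were not longer on balance. In peak number the ratio of Klf4 to empty vector was 1.62 (78 against 48 peaks), beside 1.28 over the main chromosomes and 1.33 over the windows of all coding genes. It was 1.47 without Klf15 and 1.24 (42 against 34 peaks) without Klf15, Klf13 and Klf10. These 3 were chosen after their values were seen, as those with the most Klf4-only peaks, so a lower ratio without them follows from the choice. In covered length it was 1.26 (63407 against 50298 bp), near the genome's 1.28. Of 43 matched pairs, 21 were wider and 22 narrower with Klf4. The length covered was higher with Klf4 at 8 of 10 members, beside 67.8% of coding genes. It was lower at Klf4 and Klf6, beside 20.2% of coding genes. To compare genes, the ratio was taken as log2((Klf4 bp + 500) / (empty vector bp + 500)). Its median was 0.31 over the members, 0.21 over all coding genes and 0.27 over those with an empty vector peak, as all members have. With flanks of 50 kb the order turned, to 0.23 over the members and 0.26 over all coding genes. Klf15 was the 1 member past 1.5-fold higher, beside 23.0% of coding genes, and no member was past 1.5-fold lower, beside 1.54%. Klf4, at −0.57, was past 1.5-fold lower under 4 of the alternative settings, with log2 ratios of −0.62 to −0.75. It was −0.13 without peaks over the Klf4 gene body, and turned to 0.15 with the 20000 strongest peaks of each list. On the upper side Klf2 reached 1.10 with flanks of 50 kb, and Klf3 0.65 with the 20000 strongest peaks, where Klf15 had none. More peaks were found with Klf4 at 8 members, beside 59.5% of coding genes, an equal number at Klf6, and fewer at Klf4, beside 11.8%.

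**Figure D2:**
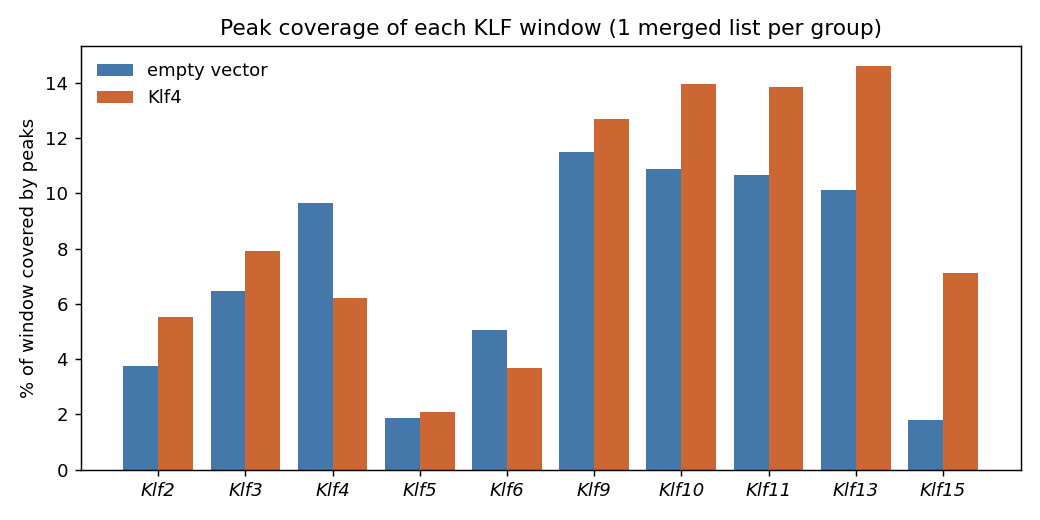
Percentage of each window covered by peaks (y axis) for the 10 KLF genes, with a blue bar for the empty vector list and an orange bar for the Klf4 list. Each bar is 1 merged list, so there are no error bars. Coverage runs from 1.81% (Klf15) to 11.5% (Klf9) with the empty vector and from 2.08% (Klf5) to 14.6% (Klf13) with Klf4.

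Per window length, the order of the members with the empty vector was Klf9 (11.5% covered), Klf10 (10.9%), Klf11 (10.7%), Klf13 (10.1%), Klf4 (9.65%), Klf3 (6.46%), Klf6 (5.06%), Klf2 (3.74%), Klf5 (1.85%) and Klf15 (1.81%). Of the 5 members described mostly as repressors 4 held the first places, and Klf3 was sixth, behind the activator Klf4. This grouping was not tested. With no library values, neighbours in this order could not be told apart or together. With Klf4 the order was Klf13 (14.6%), Klf10 (14.0%), Klf11 (13.9%), Klf9 (12.7%), Klf3 (7.93%), Klf15 (7.11%), Klf4 (6.20%), Klf2 (5.51%), Klf6 (3.67%) and Klf5 (2.08%). Klf15 stood last in the first order and sixth in the second, and the places of the others differed by at most 3. The median coding gene had 4.37% of its window covered with the empty vector and 5.54% with Klf4.

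Klf4, the transfected gene, was examined first among the members described mostly as activators. In the Klf4 list the strongest of all 128538 peaks lay in its body (chromosome 4, 55529721 to 55530988, −log10 q of 17134, fold enrichment 8.61). The empty vector peak it overlapped (55529791 to 55531758) reached just 12.8, at 2.25-fold over background. Values of −log10 q grow with read depth, which is unknown, so those of both lists set side by side here and below describe each list and do not measure a change. Signal inside this gene body may come from the plasmid, so the pair is no measure of the chromosomal gene. The start of Klf4 lay under an empty vector peak of 960 bp (55532451 to 55533410, −log10 q of 32.2, fold enrichment 3.04), which no Klf4 peak overlapped. The peak in the gene body ended 1487 bp from that start.

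MACS2 tests a region against a background taken from the surrounding reads. That background and the read pileup were estimated from the deposited fold enrichment and p-value of each peak under the Poisson model of the peak caller. At the peak in the Klf4 gene body the estimated background was 52.9 reads with the empty vector and 3611 with Klf4. At member peaks that do not touch the Klf4 gene body it ranged from 3.89 to 213 (46 peaks) and from 3.66 to 179 (77 peaks). The empty vector peak at the Klf4 start had an estimated pileup of 169 reads, and the background estimated 1487 bp away in the other list was 3611. These estimates come from lists of unknown depth and are not on one scale. The part of this background in the missing start peak was not tested.

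Apart from the start peak, which reaches beyond the gene body, and the peak inside it, the Klf4 locus had 3 peaks with either plasmid, each overlapped by 1 of the other list. The peak 55514532 to 55515359 on the downstream side had a −log10 q of 120.4 with the empty vector and its counterpart 119.6 with Klf4. The peak 8833 bp upstream of the start, 55541308 to 55542167, had 123.1, and its counterpart 82.98. It lies within the long non-coding genes Gm12506 and Gm34343. The weakest of the 3, 55549815 to 55550537, had 10.2, and its counterpart had 4.98 and was shorter (450 against 723 bp). Covered length in the window was 5339 bp with the empty vector against 3431 bp with Klf4 (log2 ratio −0.57). Without peaks that overlap the gene body the log2 ratio was −0.13.

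Klf15, a regulator of gluconeogenesis and amino acid breakdown in liver and muscle, had the highest log2 ratio of covered length of the 10 members and the most Klf4-only peaks. The empty vector list had 3 peaks covering 1459 bp and the Klf4 list had 12 covering 5738 bp (log2 ratio 1.67). A ratio at least as high was found at 363 coding genes (1.66%), Klf15 among them. The ratio starts from the lowest coverage of the 10 members with the empty vector (1.81% of the window). All 3 empty vector peaks had a counterpart with Klf4, and the other 9 Klf4 peaks were found in that list alone. Of these 9, 5 touched the gene body and 4 lay in the flanks, and their −log10 q ran from 1.22 to 8.89. A −log10 q of 5 or more was reached by 4 of the 9, and 2 were above 7.61, the median over all peaks of the Klf4 list. The strongest was at chromosome 6, 90475487 to 90475742, 12911 bp downstream of the start. The next, 90455551 to 90456383, lay 6193 bp upstream of it. The peak nearest to the start, 90461426 to 90462099, ended 477 bp before it and was the weakest (1.22). In the body the others were 90466922 to 90467243 (1.78), 90478556 to 90478990 (5.05) and 90485759 to 90485964 (3.79). In the flank past the gene they were 90503634 to 90503835 (5.14), 90506802 to 90507194 (3.00) and 90508875 to 90509338 (2.83).

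Of the 3 matched peaks of Klf15, the one after the start had the most unlike −log10 q in the lists. It spanned 90463456 to 90463885 with the empty vector (−log10 q of 1.43) and 90463097 to 90463750 with Klf4 (7.68). The pair in the flank at 90514953 to 90515487 had 21.06 with the empty vector and 21.2 with Klf4. That at 90450272 to 90450765 had 3.56 and 3.63. No other gene of any kind in the annotation overlapped this window.

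Klf2, known for quiescence of endothelial and T cells, had 2 strong peaks in both lists. The one over its start had a −log10 q of 148.6 with the empty vector and 92.1 with Klf4, and widths of 1000 and 1253 bp. The one upstream, chromosome 8, 72310789 to 72311550, had 119.6 with the empty vector and 123.5 with Klf4 at nearly the same borders. The list-specific peaks of Klf2 were all weak. With the empty vector there was 1, at 72295788 to 72295994 (−log10 q of 1.54). With Klf4 there were 3, at 72325408 to 72325650 (2.01), 72337207 to 72337403 (1.44) and 72341357 to 72341803 (1.40), the last in the neighbouring gene Eps15l1. Covered length was 1969 bp in the empty vector list against 2900 bp in the Klf4 list (log2 ratio 0.46).

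Klf5 and Klf6 had at most 3 peaks in a list, and each of their empty vector peaks had a Klf4 counterpart. Klf5, which drives proliferation of intestinal crypt cells, had 1 empty vector peak, over an end of the gene body (−log10 q of 39.7, and 49.2 for its Klf4 counterpart). The Klf4 list added 1 peak 7444 bp outside the body (chromosome 14, 99320856 to 99321118, 7.52). Its window had 1199 bp under empty vector peaks and 1343 bp under those of the Klf4 list (log2 ratio 0.12). The ratio turned to −0.13 in the gene body alone and to −0.10 with the 20000 strongest peaks or with peaks of at least 500 bp. Klf6, a broadly expressed member, had 3 peaks in both lists and no list-specific one. The peak at its start was among the strongest of the family (175 with the empty vector and 137 with Klf4), and the other 2 lay upstream and were shorter with Klf4 (456 against 246 bp and 1420 against 788 bp). In all, 2978 bp of the empty vector window and 2163 bp of the Klf4 window were covered (log2 ratio −0.39). The ratio turned to 0.02 with flanks of 10 kb, which leave out both upstream peaks.

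The 5 members described mostly as repressors, Klf3, Klf9, Klf10, Klf11 and Klf13, were all higher in covered length with Klf4 in windows with 25 kb flanks, with log2 ratios of 0.14 to 0.51 and a median of 0.34. None was past 1.5-fold there. The direction depended on the setting for Klf11 (−0.16 in the gene body alone), Klf13 (−0.09 with the 20000 strongest peaks) and Klf10 (0 in the gene body alone). The 5 activators had a median of 0.12, with 3 higher and 2 lower. Their values were 1.67 at Klf15, 0.46 at Klf2, 0.12 at Klf5, −0.39 at Klf6 and −0.57 at Klf4. Signal in the Klf4 gene body may come from the plasmid, and the median of the activators without Klf4 was not taken. The difference between these subgroups was not tested.

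Klf13, a regulator of chemokine expression in T cells, had 7 empty vector peaks covering 10404 bp and 14 Klf4 peaks covering 14982 bp. Of the Klf4 peaks 8 were list-specific, 4 of them touching the gene body, with −log10 q of 1.75 to 11.9. The strongest, chromosome 7, 63961988 to 63962271, lay 23073 bp upstream of the start over the annotated pseudogene Gm51514. The others upstream were 63951029 to 63951598 (8.74) and 63956525 to 63957195 (1.98). Those in the body not named below were 63888136 to 63888349 (1.84), 63889310 to 63890265 (2.66) and 63905420 to 63905774 (1.75), and 63877738 to 63878063 (1.79) lay past the gene. The peak over the start had 129.4 with the empty vector and, as the strongest of the Klf4 list here, 105.8 with Klf4. The strongest empty vector peak was inside the gene, 63896747 to 63897583, with 154.5 against 91.9 for its counterpart. Inside the body, a peak beginning at 63910878 in both lists was 1815 bp long with the empty vector but 3359 bp long with Klf4. A weak empty vector peak in the body (63917411 to 63918123, 2.73) had no counterpart and lay, like the Klf4-only peak 63918811 to 63920063 (5.56), over the gene E030018B13Rik.

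Klf10, first described as a gene induced by TGF-beta, had 4 empty vector peaks covering 6438 bp and 10 Klf4 peaks covering 8281 bp. Its 6 Klf4-only peaks all lay outside the gene body, with −log10 q of 1.71 to 15.1. The strongest, chromosome 15, 38319254 to 38319742, and 2 weaker ones at 38322479 to 38322896 (7.97) and 38323789 to 38324219 (5.66) lay together over the long non-coding gene Gm35248. On the other side of the gene were 38277990 to 38278376 (5.90), 38282288 to 38282512 (1.71) and 38289061 to 38289283 (5.84). On the Gm35248 side lay a peak of each list that overlapped in part. It had a −log10 q of 2.30 with the empty vector (38308199 to 38308691) and 30.2 with Klf4 (38308471 to 38308985). The wide peak over the end of the gene body was of nearly equal extent, 3518 bp against 3575 bp with Klf4, at a −log10 q of 113 and 90.7.

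Klf11 is described mostly as a repressor and is reported to bind the insulin promoter and to be linked to monogenic diabetes in people. It had the strongest start peak of the family with the empty vector. Its −log10 q was 207.8 with the empty vector and 170.3 with Klf4, over 1546 and 1728 bp. The window had 8 empty vector peaks (6547 bp) and 10 Klf4 peaks (8509 bp), and 3 of the latter were list-specific. Of these, 2 lay upstream, chromosome 12, 24633461 to 24634305 (21.1) and 24644263 to 24644475 (14.75), and 1 downstream in the neighbouring gene Cys1, 24668962 to 24669689 (3.98). An empty vector peak in the body, 24659937 to 24660214 (1.94), had no counterpart.

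Klf9, which responds to glucocorticoid and thyroid hormone, had 8 empty vector peaks, each overlapped by a Klf4 peak. The Klf4 list added 1 peak 12757 bp upstream, chromosome 19, 23128153 to 23128469, and with a −log10 q of 26.1 it was the strongest Klf4-only peak of the family when 1 bp counts as overlap. With 50% overlap asked for, the Klf10 flank peak described above (30.2) was also without a counterpart, and stronger. The peak over the start began at the same place in both lists (23140670 with the empty vector and 23140671 with Klf4) but measured 1533 bp in the former and 3017 bp in the latter, reaching further into the gene. Its −log10 q was 151.9 with the empty vector and 80.3 with Klf4. The strongest Klf4 peak of the window lay upstream over the long non-coding gene 2410080I02Rik, 23133954 to 23136875, with 84.5 against 93.7 for its empty vector counterpart. Its window had 8837 bp under empty vector peaks and 9768 bp under Klf4 peaks.

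Klf3, a repressor that recruits the corepressor CtBP, had 6 empty vector peaks (5128 bp) and 9 Klf4 peaks (6292 bp). Its strongest peak in both lists lay past the gene, at 64852703 to 64853411 with the empty vector (112.6, and 81.5 for its counterpart). Its start peak was similar in both (56.2 with the empty vector and 48.6 with Klf4, over 1672 and 1767 bp). A peak inside the gene, chromosome 5, 64811265 to 64812816, had 15.8 with the empty vector and its counterpart 43.5 with Klf4, over nearly the same borders. Of its 4 Klf4-only peaks 3 were in the body, at 64806069 to 64806401 (9.42), 64809350 to 64809533 (12.1) and 64821396 to 64822214 (9.22), and the fourth was upstream, 64797628 to 64797848 (2.07). The peak 64806069 to 64806401 (fold enrichment 2.16) and the start peak in both lists also overlapped the protein-coding gene Gm38457. The empty vector list had 1 peak of its own in the body, 64813576 to 64813769 (4.66).

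**Figure D3:**
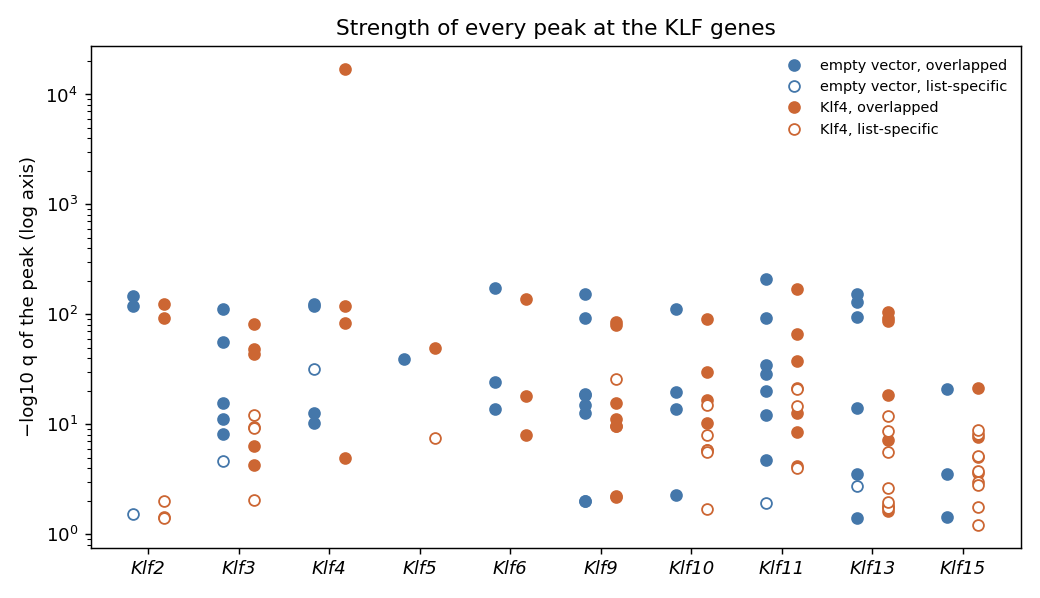
Strength of each peak at the 10 KLF genes as −log10 q (log axis), with empty vector peaks in blue and Klf4 peaks in orange and list-specific peaks as open circles. The Klf4 peak in the Klf4 gene body stands alone at 17134, and no open circle of the Klf4 list is above 26.1.

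Over the family, 35 of 78 Klf4 peaks had no empty vector counterpart (44.9%, 95% Wilson interval 34.3 to 55.9%), beside 36.7% of all Klf4 peaks. Of the 48 empty vector peaks, 5 had no Klf4 counterpart (10.4%, interval 4.53 to 22.2%), beside 18.8% of all empty vector peaks. Both genome-wide shares lay inside these intervals, which cover counting error only, as neighbouring peaks are not independent. A Klf4-only peak was found at 8 of 10 members, beside 72.3% of coding genes, and an empty-vector-only peak at 5, beside 49.7%. Klf15, Klf13 and Klf10 held 23 of the 35 Klf4-only peaks. Without these 3 the share was 28.6% of 42 peaks, and here too the choice fixes the direction.

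The Klf4-only peaks of the family were weaker and narrower than the overlapped ones. Their median −log10 q was 5.14 and median width 355 bp, against 21.2 and 788 bp for the overlapped Klf4 peaks. All Klf4-only peaks of the genome had medians of 4.75 and 355 bp. A −log10 q of at least 10 was reached by 6 of the 35, at Klf3, Klf9, Klf10, Klf11 (2 peaks) and Klf13 (17.1%, beside 19.4% of all Klf4-only peaks). No list-specific peak of the family reached 50, a level that 15 of its 48 empty vector peaks and 15 of its 78 Klf4 peaks did. Shares at this level over all peaks of each list were not counted, so this describes the family alone. Of the 28 Klf4-only peaks at members with a known start, 1 lay within 1 kb of it (3.57%), 9 lay upstream (32.1%) and 19 downstream (67.9%), at a median distance of 17600 bp. For Klf4-only peaks in the same kind of window around all coding genes these values were 2.77%, 28.2%, 70.2% and 21882 bp. Of the 35, 12 touched the gene body (34.3%, beside 43.6%) and 9 overlapped another annotated gene (25.7%, beside 39.6%). Of the 5 empty-vector-only peaks, 4 had a −log10 q under 5, and the exception was the peak at the Klf4 start.

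To compare strength without the difference in list length, peaks matched 1 to 1 were ranked by −log10 p among all 79834 such pairs, which are equally many in both lists. The 43 pairs at the KLF genes had a median shift of −0.049 percentile points with Klf4, where all pairs had −0.98. Of these, 6 ranked over 10 points higher with Klf4 (13.95%, beside 14.9% of all pairs) and 7 over 10 points lower (16.3%, beside 19.4%). The farthest shift upward was that of the Klf10 flank peak at 38308471 to 38308985, from percentile 6.31 to 77.0. Its 2 peaks shared just 221 bp (44.8% of the empty vector peak and 42.9% of the Klf4 peak), so they are no pair where 50% overlap is asked for. It was followed by the peak in the Klf4 gene body (51.5 to 100), the Klf15 peak after the start (1.30 to 38.3) and the Klf3 pair inside the gene (57.9 to 83.6). Signal in the Klf4 gene body may come from the plasmid, so that pair, counted among the 6, is no measure of the chromosomal gene. The 2 Klf15 peaks shared 295 bp (68.6% of the empty vector peak and 45.1% of the Klf4 peak). They are no pair where 50% of both peaks must be covered. The farthest shift downward was that of the weakest Klf4 flank peak (44.1 to 24.1). Of the 43 pairs 21 were wider with Klf4 (48.8%, beside 46.9% of all pairs). Both directions were thus about as common at the KLF genes as elsewhere.

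**Figure D4:**
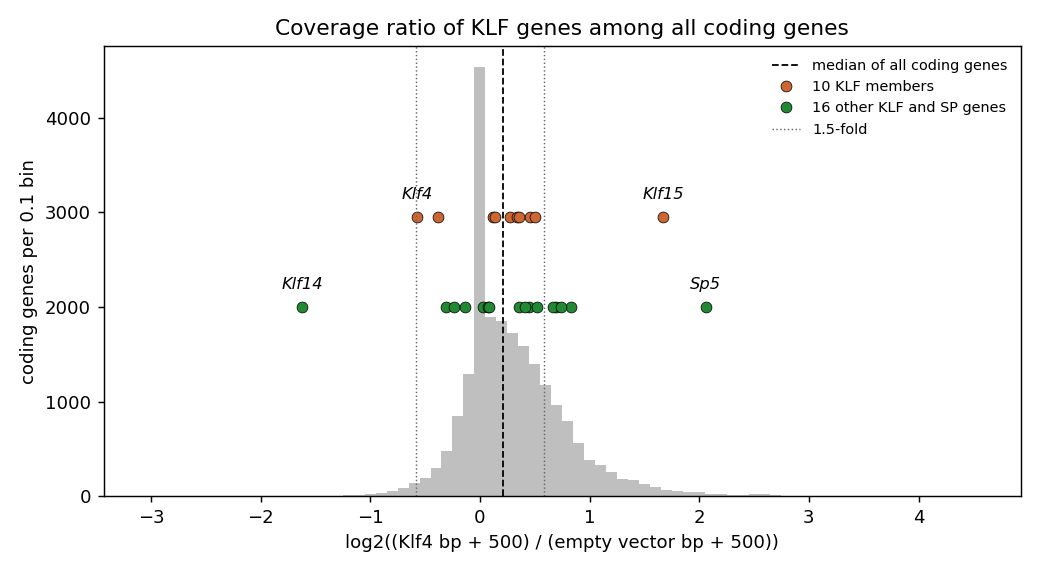
Distribution of the log2 coverage ratio over 21887 coding genes (grey, genes per bin of 0.1), with the 10 KLF members in orange and 16 other KLF and SP genes in green at arbitrary heights. The dashed line is the median of all coding genes (0.21) and the dotted lines mark 1.5-fold. Klf15 (1.67) lies past the upper dotted line and Klf4 (−0.57) just inside the lower one.

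The other genes of the KLF and SP families encode factors with the same type of zinc fingers. Over these 16 genes the median log2 ratio was 0.38, with 12 higher and 4 lower with Klf4, beside a median of 0.21 and shares of 67.8% and 20.2% over all coding genes. The 7 other KLF genes had a median of 0.03 (4 higher, 3 lower) and the 9 SP genes one of 0.45 (8 higher, 1 lower). Past 1.5-fold higher were 5, Sp5, Klf16, Sp7, Klf1 and Sp1 (beside 23.0% of coding genes), and past 1.5-fold lower was 1, Klf14 (beside 1.54%). Sp5, a target of Wnt signalling in embryos, had 1 empty vector peak of 377 bp and 4 Klf4 peaks covering 3155 bp (log2 ratio 2.06). The Klf4 peak that overlapped the empty vector peak was 2274 bp wide (chromosome 2, 70474428 to 70476701). Klf14 had 2 empty vector peaks, with −log10 q of 5.47 and 1.38, and none with Klf4 (1036 bp against 0). Klf1, the erythroid member, had 3602 bp covered in the empty vector list against 6139 bp in that of Klf4. In the same order Klf16 had 6461 and 11922 bp, Sp7 had 5337 and 9249 bp and Sp1 had 3951 and 6548 bp. The windows of Sp1 and Sp7 overlap, as do those of Sp2 and Sp6, so these pairs share peaks.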

How the data were processed

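ATAC-seq of MIN6 cells was analysed from 2 deposited lists in broadPeak format, 1 per plasmid, each called merged in its name, where the labels list 4 libraries per plasmid; which libraries, and whether reads or peaks, were merged is not stated. Bowtie2, MACS2, DiffBind, FastQC and mm10 are named in the submitters' processing notes, and versions, filters and read shifting are not given in the sources used here. Per peak, the deposited values are the ratio (fold) of signal over local background and −log10 of the p-value and the q-value, all from the authors' peak caller. They were ranked within a list. Values of both lists are also printed side by side, as descriptions, since read depth is unknown; ranks among matched pairs compare the lists without the difference in list length.

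Peaks on chromosomes 1 to 19, X and Y were used, leaving out 165 and 188 on scaffolds. Genes and starts came from RefSeq tables of GRCm38.p6, the assembly of mm10, where all 10 members and 16 related genes were matched. Peaks counted as overlapped from 1 bp. Coverage is the length under peaks in a window, with 500 bp added before log2. Shares carry 95% Wilson intervals. Background reads per peak were solved from fold (pseudocount 1) and p under a Poisson model and are estimates. The steps were checked on simulated data.

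The members, lists and thresholds were chosen with earlier results of these data known. Named are all members, each of their list-specific peaks, the strongest peak of each member in each list, and KLF and SP genes past 1.5-fold. Role subgroups (activators, repressors) follow general descriptions of the factors. The rank shift of 10 points and the limits below which a value counts as not moved were set after the files were seen. Alternatives were windows of 0, 10 and 50 kb, a −log10 q of at least 5, the 20000 strongest peaks, peaks of at least 500 bp, 50% overlap, 100 bp added, leaving out peaks in the Klf4 body, leaving out Klf4 and, added after seeing the data, leaving out Klf15 or Klf15, Klf13 and Klf10. Scripts ran in Python 3.11.15 with scipy 1.17.1, pandas 2.3.3, numpy 2.4.6 and matplotlib 3.10.9.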

Additional observations from a re-analysis of the deposited data

How the results depend on the processing

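No paired analysis was possible because no value belongs to a single library, and for the same reason no replicate was left out. Of 82 summary values under alternatives, 63 stayed within set limits (0.1 in a median log2 ratio, 1.5 times in a count, the 95% interval of a share, 5 points in a rank shift) and 19 moved. The median log2 ratio of the members moved to 0.15 with the 20000 strongest peaks of each list, to 0.11 with peaks of at least 500 bp (all coding genes 0.13), and to 0.14 without Klf15, Klf13 and Klf10, a choice made after seeing the data. That of the other KLF and SP genes moved to 0.18 at a −log10 q of at least 5, to 0 with the 20000 strongest peaks and to 0.26 with peaks of at least 500 bp. Without Klf4 the median of the remaining members was 0.34, the ratio of peak numbers 1.72 and the Klf4-only share 47.3%. Klf4 peaks at the members numbered 49 with 10 kb flanks, 123 with 50 kb, 31 in gene bodies alone, 20 among the 20000 strongest, 45 with a width of at least 500 bp and 42 without the 3 members. Empty vector peaks numbered 85 with 50 kb, 23 in bodies and 18 among the 20000 strongest. The Klf4-only share was 15.0% among the 20000 strongest (all peaks 12.7%), 31.1% with a width minimum of 500 bp (34.1%), 36.6% with 50 kb flanks (36.7%) and 28.6% without the 3 members (36.7%), so it was below the genome-wide share in the last 3 of these, the last by the choice of members. The empty-vector-only share was 22.9% when 50% of both peaks had to be covered (32.6%). Klf15 was higher with Klf4 in each setting that left it a peak, at up to 2.06, and had no peak among the 20000 strongest of either list. Klf4 was lower in each setting except the 20000 strongest peaks (0.15). Klf6 turned to 0.02 with 10 kb flanks and with the 20000 strongest peaks, and to 0.11 in the gene body alone. Klf5, Klf10, Klf11 and Klf13 also turned or went to 0 in some settings, as given with their values above. The causes were not tested. Unknown depth limits all comparisons of peak number, since weak peaks pass a q-value more easily in deeper libraries.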
